A study of Mus musculus with 4 samples.

Results

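Sox factors are DNA-binding proteins that share the HMG box, and 8 of them other than Sox10 were followed in mouse sciatic nerve of Zeb2 conditional knockout and control mice. They are Sox2 and Sox3 of the SoxB1 group, Sox4 and Sox11 of SoxC, Sox5 and Sox6 of SoxD, and Sox8 and Sox9 of SoxE. The genes were chosen by name, as Sox factors that oppose or accompany glial differentiation, with earlier results of these data known. All 8 were found among the 22096 gene symbols of the tables. RNA sequencing compared Zeb2 cKO with control nerves at postnatal day 7. Both groups have a mixed strain background, per the labels, and each sample is RNA from pooled sciatic nerves. Zeb2 encodes a zinc finger repressor, and cKO denotes a conditional knockout. The Cre line, the deleted exons and the alleles that the control mice carry are not given in the labels. The labels describe 2 samples in each group, and 1 table for each group was analysed here. The labels list that table under both samples and do not say whether it holds 1 of them or both pooled. It is called a library here.

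Schwann cells, the glia of peripheral nerve, pass through an immature stage before they wrap axons in myelin. Sox10 is kept through all of these stages and is needed for myelin gene expression. Sox2 marks immature Schwann cells and holds back their myelination, and prolonged Sox4 expression delays myelination in mice. Sox5 and Sox6 lack an activation domain of their own. In the central nervous system they counteract SoxE factors in oligodendrocyte precursors, and in cartilage they act together with Sox9. Sox8 and Sox9 are close relatives of Sox10, and Sox9 drives the start of gliogenesis in the spinal cord. Sox3 is an X-linked factor of neural progenitors, and Sox11 acts in young neurons.

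The expression unit is FPKM, the number of fragments scaled to transcript length and to the size of the library, as estimated by Cufflinks, so levels of different genes can be set side by side. Estimated from coverage, 20288183 reads lay behind the Zeb2 cKO values and 29729619 behind the control values. With 1 library in each group there is no replicate behind any value, no test between the conditions, and differences are given by their size. A gene was counted as measured at a mean of at least 1 FPKM over both libraries, and as higher or lower when log2((FPKM Zeb2 cKO + 1)/(FPKM control + 1)) reached 2-fold. Folds printed beside levels are plain FPKM ratios. Counting intervals (95%) cover the sampling of reads only. Zeb2 was at 19.5 FPKM in Zeb2 cKO nerve, against 34.4 FPKM in control nerve, which is the direction of the labels and a log2 ratio short of 2-fold. Schwann lineage markers were present in both libraries. Of 5 with values, 3 were 2-fold or more lower and 1 was higher, and they summed to 368 FPKM in Zeb2 cKO nerve and 998 FPKM in control nerve, with S100b at 42.5 FPKM in Zeb2 cKO nerve and 188 FPKM in control nerve. Because whole nerve was sequenced, fewer cells of a type and less RNA per cell cannot be told apart.

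Sox genes resemble each other in the HMG box, so the sequences they share were compared with the length of a read. In GENCODE M21 transcripts (GRCm38) no stretch of 50 bases of any of the 8 genes occurred in another Sox gene or in Sox2ot, in 160 comparisons. One read contributed an estimated 52.6 bases. The longest identical stretch was 48 bases. Each stretch shown here lies wholly in coding sequence, and these 3 are given as the longest that join the SoxC and the SoxB1 members, and for Sox9 and Sox10, whose levels differed in opposite directions. Sox3 and Sox1 share 45 bases, and Sox1 was near absent. The longest stretches that join Sox8 to Sox9 and Sox5 to Sox6 have 23 bases each and are not shown. The first codes for part of the HMG box of Sox11 (chr12:27342166-27342213, minus strand) and Sox4 (chr13:28952749-28952796, minus strand), and is 48 bases long. The second codes for part of the HMG box of Sox3 (chrX:60892835-60892866, minus strand) and Sox2 (chr3:34650677-34650708, plus strand), and is 32 bases long. The third is shared by Sox9 (chr11:112782831-112782874, plus strand) and Sox10 (chr15:79163430-79163473, minus strand), and is 44 bases long. How the aligner placed reads with mismatches was not tested.
Sox11 and Sox4: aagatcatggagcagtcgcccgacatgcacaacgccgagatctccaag
Sox3 and Sox2: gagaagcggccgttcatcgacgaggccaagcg
Sox9 and Sox10: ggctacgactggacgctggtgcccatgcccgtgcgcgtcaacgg

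All 8 genes had more FPKM in Zeb2 cKO nerve than in control nerve, and the counting interval of each fold lay above 1. Of the 8 genes, 7 were measured, and Sox11 stayed below the filter. Sox2, Sox3 and Sox8 were 2-fold or more higher, 3 of the 7 measured, beside 8.59% of all 12903 measured genes. None of the 7 was 2-fold or more lower, beside 6.25% of all measured genes. At 1.5-fold, 5 of the 7 were higher beside 19.7% of all measured genes, and 0 were lower beside 9.81%. The genes were chosen with earlier results of these data known, so these counts are a description. The median log2 ratio of the 7 was 0.82, beside 0.18 for all measured genes, of which 67.6% lay above 0. Dividing the Zeb2 cKO values so that the median gene had a ratio of 1, here called rescaling, left all 8 above 0 and took Sox8 under 2-fold, to a log2 ratio of 0.84. Over all measured genes rescaling turned 1109 higher and 806 lower genes into 782 higher and 960 lower.

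**Figure D1:**
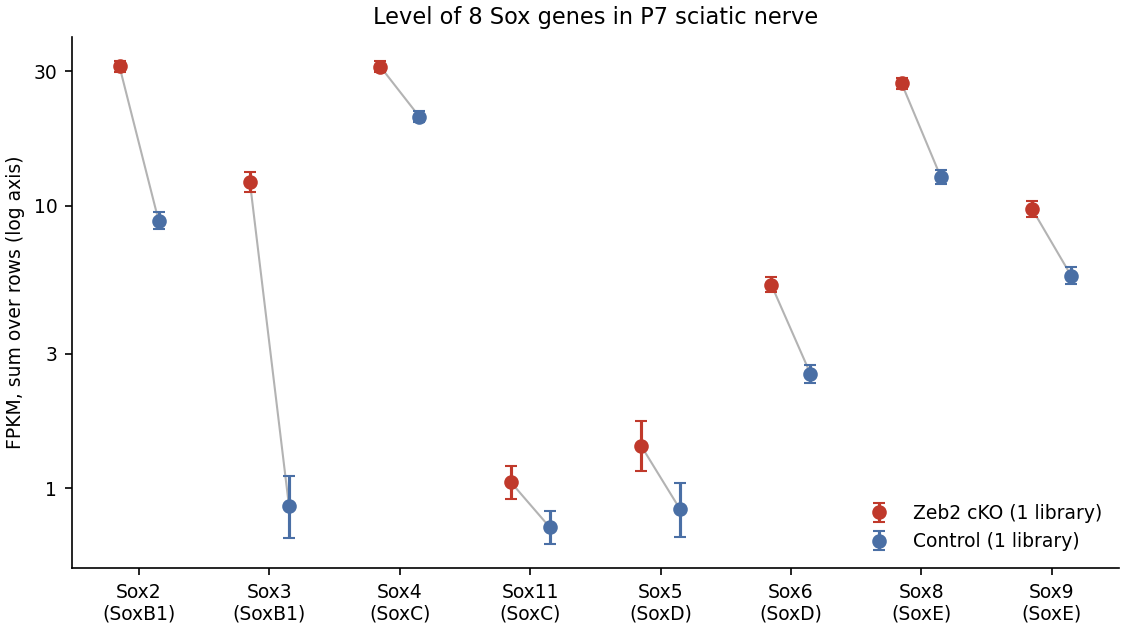
Level of each of the 8 Sox genes in FPKM (log axis), with the Zeb2 cKO library in red and the control library in blue. Points are single libraries and bars are 95% counting intervals. Each red point lies above its blue partner, with the widest gap at Sox3 (12.2 FPKM in Zeb2 cKO nerve against 0.868 FPKM in control nerve).

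The order of levels differed between the libraries. In the Zeb2 cKO library Sox2 and Sox4 led with 31.2 and 31.1 FPKM, and their counting intervals overlapped. Sox8 followed at 27.1 FPKM, Sox3 at 12.2, Sox9 at 9.76 and Sox6 at 5.26 FPKM. The counting interval of each was apart from those of its neighbours in the order. Sox5 and Sox11 came last, at 1.42 and 1.05 FPKM, with overlapping intervals. In the control library Sox4 led at 20.7 FPKM, followed by Sox8 at 12.7, Sox2 at 8.87, Sox9 at 5.66 and Sox6 at 2.55 FPKM. Their counting intervals were all apart from one another. Sox3, Sox5 and Sox11 could not be separated there, at 0.868, 0.844 and 0.729 FPKM. Error in the levels that comes from the row of a gene, such as a Sox4 row shorter than in GENCODE M21, is outside these intervals.

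The SoxB1 genes, which maintain progenitors of the nervous system, had the largest differences of the 8. Sox3 (chrX:58144541-58146605, mm9) was at 12.2 FPKM in Zeb2 cKO nerve, against 0.868 FPKM in control nerve. That is 14.0-fold higher (counting interval 10.8 to 18.5), from an estimated 609 and 64 reads, with a log2 ratio of 2.82. Sox3 stood among the lowest of the 8 genes in the control order and between Sox8 and Sox9 in the Zeb2 cKO order. Of all measured genes, 104 had a ratio at least as high, which is 0.806%.

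Sox2 (chr3:34548927-34551382, mm9) was at 31.2 FPKM in Zeb2 cKO nerve, against 8.87 FPKM in control nerve. It was 3.51-fold higher (3.23 to 3.82), with a log2 ratio of 1.70, and 344 measured genes had a ratio at least as high. The noncoding gene Sox2ot spans the Sox2 locus (chr3:34459303-34576915), on the same strand in GENCODE M21, and the longest stretch their transcripts share there is 12 bases. Sox2ot did not share the direction, at 10.8 FPKM in Zeb2 cKO nerve and 12.9 FPKM in control nerve, with a log2 ratio of -0.23. Sox1, the remaining SoxB1 gene, was near absent, at 0.0501 FPKM in Zeb2 cKO nerve and 0.0734 FPKM in control nerve. Summed over the group, SoxB1 transcripts stood at 43.4 FPKM in Zeb2 cKO nerve against 9.81 FPKM in control nerve, 4.42-fold higher, and Sox3 made up 28.1% of that sum in the Zeb2 cKO library and 8.85% in the control library.

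Sox2, Sox3, Sox4 and Sox11 are each 1 exon in the tables. No splice junction tells reads of their RNA from reads of genomic DNA of these loci, and both are counted alike. Of the other Sox genes, Sox1, Sox12, Sox14, Sox21 and Sry are also 1 exon. Sox12 was at 9.76 FPKM in Zeb2 cKO nerve and 15.4 FPKM in control nerve, Sox1 and Sox21 were below 0.1 FPKM in both libraries, and Sox14 and Sry were listed at 0. The part of genomic DNA in these levels was not tested.

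The SoxC genes differed less. Sox4 (chr13:29042599-29045551, mm9), a factor of progenitors and immature glia, was at 31.1 FPKM in Zeb2 cKO nerve and 20.7 FPKM in control nerve. Its fold was 1.5 (1.42 to 1.60) and its log2 ratio 0.57, short of 2-fold. The Sox4 row is 2953 bases long, against 4795 bases in GENCODE M21, so reads from the remaining part were not in its FPKM. Sox11 (chr12:28019133-28027583, mm9) had 1.05 FPKM in Zeb2 cKO nerve and 0.729 FPKM in control nerve, from 216 and 219 estimated reads, with a log2 ratio of 0.25. Sox12, the third SoxC gene, went the other way, at 9.76 FPKM in Zeb2 cKO nerve and 15.4 FPKM in control nerve, with a log2 ratio of -0.61. The SoxC sum was therefore close in the libraries, at 42.0 FPKM in Zeb2 cKO nerve against 36.9 FPKM in control nerve, while Sox4 made up 74.2% of it in the Zeb2 cKO library and 56.1% in the control library.

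In the SoxD group the summed level of Sox6 (chr7:122614858-123182258, mm9) was 5.26 FPKM in Zeb2 cKO nerve, against 2.55 FPKM in control nerve. This was 2.07-fold higher as a plain ratio (1.88 to 2.27), but the log2 ratio with the pseudocount was 0.82, short of 2-fold. Sox5 (chr6:143781349-144158078, mm9) was low, at 1.42 FPKM in Zeb2 cKO nerve and 0.844 FPKM in control nerve, with a log2 ratio of 0.39 from 98 and 86 estimated reads. The longer of its 2 rows has 2917 bases, against 7243 bases in GENCODE M21. Sox13, the third SoxD gene, had 9.58 FPKM in Zeb2 cKO nerve and 14.2 FPKM in control nerve, with a log2 ratio of -0.52. The group sum was 16.3 FPKM in Zeb2 cKO nerve against 17.6 FPKM in control nerve, and Sox5 and Sox6 together held a larger share of it in the Zeb2 cKO library, with Sox6 at 32.4% in Zeb2 cKO nerve against 14.5% in control nerve.

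The tables hold 3 Sox6 transcripts, which begin at different first exons and share most of the remaining exons. The transcript with the most upstream start (NM_001025559) had 1.34 FPKM in Zeb2 cKO nerve and 1.92 FPKM in control nerve, or 25.4% and 75.3% of the Sox6 sum. The transcript with the middle start (NM_001025560) had 2.61 FPKM in Zeb2 cKO nerve and 0.630 FPKM in control nerve, or 49.7% and 24.7% of the sum. The transcript with the most downstream start (NM_011445) had 1.31 FPKM in Zeb2 cKO nerve and 4.62e-05 FPKM in control nerve. The higher Sox6 sum in the Zeb2 cKO library thus lay in the 2 transcripts with later starts, and the most upstream transcript was lower there. Taking only the transcript with the highest mean, the most upstream one, gave Sox6 a log2 ratio of -0.32, the opposite direction to the sum. The middle transcript had almost the same mean and was higher in the Zeb2 cKO library, so this sign rests on a near tie. Cufflinks divides reads among transcripts that overlap almost wholly, so these shares are estimates, and the deposited columns used here carry no error for them.

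**Figure D2:**
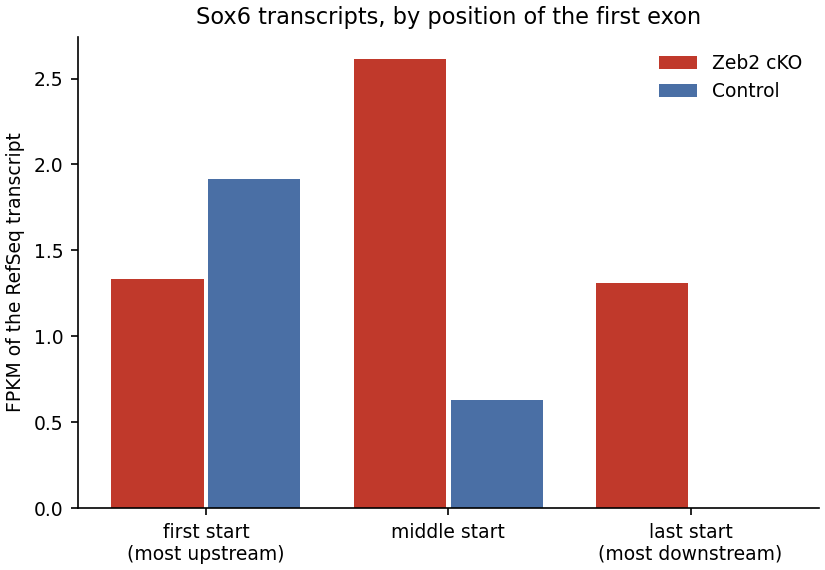
FPKM of the 3 Sox6 transcripts, ordered by the position of their first exon, with the Zeb2 cKO library in red left of the control library in blue. Bars are single libraries and have no error. The most upstream start is the lower one in the Zeb2 cKO library (1.34 FPKM in Zeb2 cKO nerve against 1.92 FPKM in control nerve), and the other two starts are higher.

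The 250 bases before each of these 3 Sox6 starts are shown because the difference in Sox6 lies between them, and those before Sox2 and Sox8 because these genes were 2-fold or more higher. They come from RefSeq on GRCm38.p6, where all of the 8 genes but Sox3 and Sox9 had an entry. The Sox6 and Sox8 starts are those of the tables' transcripts, and the Sox2 start is the one RefSeq gives on that build. The 3 Sox6 starts are 7697 and 35961 bases apart in the tables' build and in GRCm38 alike. Capitals mark CACCT or its reverse complement AGGTG, the core letters that ZEB factors are known to bind, searched on both strands. Before the most upstream Sox6 start (chr7:116038745-116038994, minus strand) there was 1 match. Before the middle start (chr7:116031048-116031297, minus strand) there were 2 matches, and before the most downstream start (chr7:115995087-115995336, minus strand) there were 0. The windows of Sox2 (chr3:34649745-34649994, plus strand) and Sox8 (chr17:25570687-25570936, minus strand) held 0 matches. Among the windows not shown, those of Sox4 and Sox11 held 1 match each. That of Sox5 and those of further Sox6 starts held 0. These starts were not matched to the tables' transcripts, and the Sox5 start lies downstream of some Sox5 coding sequence. At least 1 match was present in 46.0% of 32851 such windows of all genes. A match is a run of letters, not a measured binding site.
Sox6 upstream start: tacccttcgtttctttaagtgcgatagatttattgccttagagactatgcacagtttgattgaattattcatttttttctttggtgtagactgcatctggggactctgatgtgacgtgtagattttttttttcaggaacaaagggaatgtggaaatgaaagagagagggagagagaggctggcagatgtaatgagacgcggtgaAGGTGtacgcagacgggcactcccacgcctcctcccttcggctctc
Sox6 middle start: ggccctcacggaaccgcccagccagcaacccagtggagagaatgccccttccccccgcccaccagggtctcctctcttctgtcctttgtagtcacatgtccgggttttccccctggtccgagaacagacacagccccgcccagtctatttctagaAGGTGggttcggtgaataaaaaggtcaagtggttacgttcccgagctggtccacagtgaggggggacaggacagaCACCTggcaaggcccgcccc
Sox6 downstream start: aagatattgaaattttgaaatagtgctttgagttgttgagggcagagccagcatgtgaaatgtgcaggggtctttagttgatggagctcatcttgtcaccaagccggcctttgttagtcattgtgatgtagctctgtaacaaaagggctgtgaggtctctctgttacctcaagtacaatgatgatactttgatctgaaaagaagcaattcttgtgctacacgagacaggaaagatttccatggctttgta
Sox2: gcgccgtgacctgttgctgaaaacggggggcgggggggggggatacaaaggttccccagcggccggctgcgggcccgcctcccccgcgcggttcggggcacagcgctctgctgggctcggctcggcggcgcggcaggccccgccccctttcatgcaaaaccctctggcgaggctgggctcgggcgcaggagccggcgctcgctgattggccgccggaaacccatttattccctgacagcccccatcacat
Sox8: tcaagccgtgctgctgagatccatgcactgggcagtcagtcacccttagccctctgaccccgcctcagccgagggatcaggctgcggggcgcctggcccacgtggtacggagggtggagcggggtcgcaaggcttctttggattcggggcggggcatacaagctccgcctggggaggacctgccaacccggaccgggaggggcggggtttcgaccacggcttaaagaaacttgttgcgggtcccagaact

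Among the SoxE genes, Sox8 (chr17:25702838-25707631, mm9) was at 27.1 FPKM in Zeb2 cKO nerve, against 12.7 FPKM in control nerve. It was 2.14-fold higher (2.00 to 2.30) with a log2 ratio of 1.04, whose counting interval of 0.95 to 1.14 spans the 2-fold line. Sox9 (chr11:112643524-112649071, mm9) was at 9.76 FPKM in Zeb2 cKO nerve and 5.66 FPKM in control nerve, 1.72-fold (1.57 to 1.89), with a log2 ratio of 0.69. Sox10 stood opposite to both, at 69.2 FPKM in Zeb2 cKO nerve and 139 FPKM in control nerve. It remained the most abundant SoxE gene in both libraries. The SoxE sum was 106 FPKM in Zeb2 cKO nerve against 157 FPKM in control nerve. Sox8 made up 25.6% of it in Zeb2 cKO nerve against 8.04% in control nerve, Sox9 9.20% in Zeb2 cKO nerve against 3.60% in control nerve, and Sox10 65.2% in Zeb2 cKO nerve against 88.4% in control nerve.

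**Figure D3:**
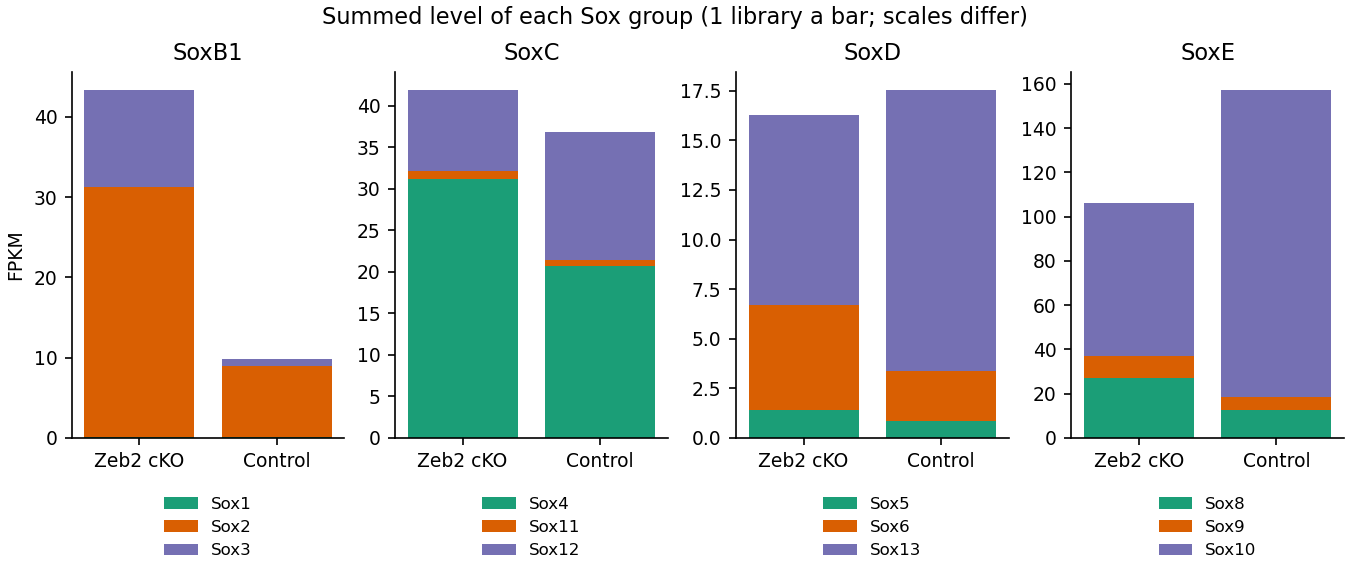
Summed FPKM of the SoxB1, SoxC, SoxD and SoxE groups, stacked by gene, with the Zeb2 cKO library left of the control library in each panel. Bars are single libraries without error and the panels have different scales. The SoxB1 bar is the taller one in the Zeb2 cKO library (43.4 FPKM in Zeb2 cKO nerve against 9.81 FPKM in control nerve), the SoxE bar is the shorter one (106 FPKM in Zeb2 cKO nerve against 157 FPKM in control nerve), and Sox12, Sox13 and Sox10 take smaller shares there.

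Relative to Sox10 in the same library, which removes any scaling between libraries, all 8 genes were higher in the Zeb2 cKO library. Sox2 was at 45.0% of the Sox10 level in the Zeb2 cKO library and 6.38% in the control library. Sox3 was at 17.6% in Zeb2 cKO nerve against 0.624% in control nerve, Sox8 at 39.2% in Zeb2 cKO nerve against 9.10% in control nerve, and Sox4 at 45.0% in Zeb2 cKO nerve against 14.9% in control nerve. The smallest of the 8 shifts was that of Sox11, at 1.52% of the Sox10 level in the Zeb2 cKO library and 0.525% in the control library. Sox10 itself was 2.01-fold lower in the Zeb2 cKO library as a plain ratio and carries part of each shift. For Sox4, Sox5, Sox9 and Sox11, whose plain folds were smaller than that, Sox10 carries the larger part. A log2 ratio at least as high as that of Sox10 was found for 93.7% of all measured genes. That all 8 genes were higher relative to Sox10 therefore says little about them as a set.

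The rest of the family showed both directions. Of 12 other Sox genes, 6 were measured and 0 of them were 2-fold apart, beside 8.59% of all measured genes higher and 6.25% lower. With the pseudocount their log2 ratios lay between -0.996 for Sox10 and 0.99 for Sox18. As plain ratios, Sox10 was 2.01-fold lower (1.94 to 2.08) and Sox18 2.05-fold higher (1.88 to 2.25). Rescaling took Sox10 past 2-fold, to a log2 ratio of -1.20, and Sox18 to 0.79. The SoxF genes Sox7, Sox17 and Sox18, which act in endothelium, had log2 ratios of 0.81, 0.49 and 0.99. Beside them, 8 of 8 endothelial markers were measured, 0 were 2-fold apart, and their median was 0.72, beside 0.18 for all measured genes. With so few genes, a count of 0 is not far from the shares of all measured genes given above. These markers summed to 223 FPKM in Zeb2 cKO nerve and 130 FPKM in control nerve. Sox1, Sox15, Sox21 and Sox30 were below 0.15 FPKM in both libraries, and Sox14 and Sry were listed at 0 in both.

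**Figure D4:**
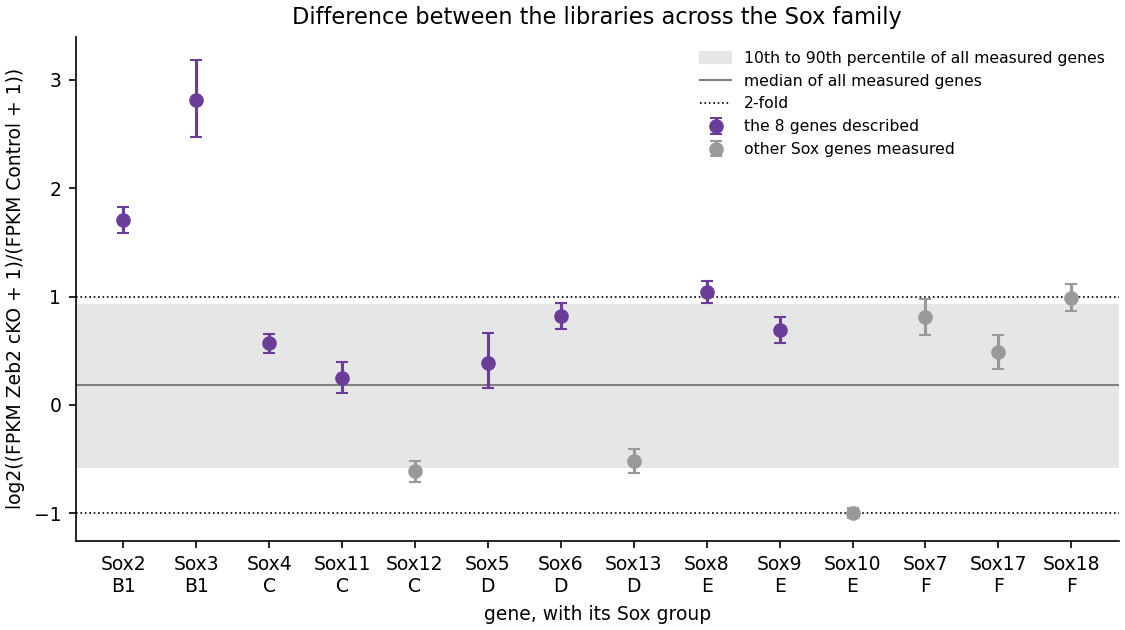
Log2 ratio of FPKM plus 1, Zeb2 cKO over control, for the 8 genes (purple) and the other measured Sox genes (grey), ordered by Sox group. Bars are 95% counting intervals, the grey band is the 10th to 90th percentile of all measured genes, and dotted lines mark 2-fold. Sox3 and Sox2 lie well above the band, Sox8 and the SoxF gene Sox18 just above it, and Sox12, Sox13 and Sox10 lie below 0.

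Genes that have been linked to Sox2 in Schwann cells were mostly higher. In a list of 8, 7 were measured, 5 were 2-fold or more higher and 0 lower, with a median log2 ratio of 1.07 beside 0.18 for all measured genes. Over all measured genes 8.59% were higher and 6.25% lower. This list and those below were chosen with earlier results of these data known, so their counts are a description. Cdh2, the adhesion protein N-cadherin, was at 53.0 FPKM in Zeb2 cKO nerve and 5.87 FPKM in control nerve, 9.03-fold higher. Efnb2, an ephrin ligand, was at 22.7 FPKM in Zeb2 cKO nerve against 5.92 FPKM in control nerve (3.84-fold). Fn1, the matrix protein fibronectin, was at 152 FPKM in Zeb2 cKO nerve against 58.1 FPKM in control nerve (2.61-fold), and Ephb2, an ephrin receptor, at 16.6 FPKM in Zeb2 cKO nerve against 7.37 FPKM in control nerve (2.25-fold). Robo1, a Slit receptor, was below the filter at 1.28 FPKM in Zeb2 cKO nerve and 0.535 FPKM in control nerve, and Ctnnb1, beta-catenin, had a log2 ratio of 0.04. Fibroblasts also express Fn1, and 5 of 9 endoneurial fibroblast markers were 2-fold or more higher, with a sum of 6550 FPKM in Zeb2 cKO nerve and 4007 FPKM in control nerve. Their part in the result was not tested.

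Schwann cell genes known as targets of SoxE factors were mostly lower. Of 15 genes, 13 were measured, with a median of -2.60. In this list 11 were 2-fold or more lower, beside 6.25% of all measured genes, and 1 was higher, beside 8.59%. Mag, a myelin protein facing the axon, was at 2.58 FPKM in Zeb2 cKO nerve and 224 FPKM in control nerve, 86.8-fold lower. Pou3f1, a transcription factor of promyelinating cells, was at 1.02 FPKM in Zeb2 cKO nerve against 68.1 FPKM in control nerve (66.6-fold lower). The myelin genes Pmp22 and Mbp were 25.8-fold and 22.2-fold lower. The one that was higher is Cdh19, a cadherin of Schwann cell precursors, named because it was the exception, at 65.3 FPKM in Zeb2 cKO nerve against 31.9 FPKM in control nerve (2.05-fold).

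Cartilage matrix genes, classical targets of Sox9 with Sox5 and Sox6, were higher in part, and the same list serves as the chondrocyte markers. Of 13 genes, 8 were measured, with a median of 1.75. Among them 7 were 2-fold or more higher, beside 8.59% of all measured genes, and 0 lower, beside 6.25%. Col9a1, a chain of collagen IX, was at 79.7 FPKM in Zeb2 cKO nerve and 1.54 FPKM in control nerve, 51.8-fold higher. Col11a1 and Col9a3 were at 458 and 220 FPKM in Zeb2 cKO nerve against 21.3 and 13.0 FPKM in control nerve, and Col9a2 at 76.6 FPKM in Zeb2 cKO nerve against 21.4 FPKM in control nerve. The remaining 5 genes were not measured. Among these, the cartilage markers Acan, Matn1, Matn3 and Comp were at 0.206, 0, 0 and 0.211 FPKM in Zeb2 cKO nerve and at 0.147, 0.0162, 0.0405 and 0.224 FPKM in control nerve. Of the measured genes that are not collagens, Hapln1, a link protein of cartilage matrix, was at 2.00 FPKM in Zeb2 cKO nerve and 0.329 FPKM in control nerve (6.09-fold). Lect1, which encodes chondromodulin, was at 4.61 FPKM in Zeb2 cKO nerve and 2.75 FPKM in control nerve, within 2-fold. The 13 genes summed to 875 FPKM in Zeb2 cKO nerve and 73.0 FPKM in control nerve.

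Progenitor genes that accompany SoxB1 factors in the nervous system were mostly higher. Of 12, 10 were measured, with a median of 1.27. Among them 6 were 2-fold or more higher, beside 8.59% of all measured genes, and 1 was lower, beside 6.25%. Gfap and Slc1a3, a filament and a glutamate transporter of glia, were at 300.1 and 306 FPKM in Zeb2 cKO nerve, against 0.914 and 2.68 FPKM in control nerve. The RNA-binding proteins Msi1 and Msi2 were at 7.76 and 29.7 FPKM in Zeb2 cKO nerve, against 1.63 and 7.70 FPKM in control nerve. Nes, which encodes nestin and was named because it was the exception, was at 25.5 FPKM in Zeb2 cKO nerve against 68.5 FPKM in control nerve (2.69-fold lower). Skeletal muscle also expresses Nes, and its markers were 2-fold or more lower in 10 of 10. Muscle markers summed to 796 FPKM in Zeb2 cKO nerve and 6637 FPKM in control nerve. Sox6, which represses slow fibre genes in muscle, was on the higher side. Muscle stem cell markers were low, with a sum of 3.94 FPKM in Zeb2 cKO nerve against 8.28 FPKM in control nerve. The part of muscle RNA in these results was not tested.

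A list of 14 genes held negative regulators of Schwann cell myelination, and also Gfap and Ngfr as markers of immature Schwann cells. Of these 14, 13 were measured, with a median of 0.88. In this list 6 were 2-fold or more higher, beside 8.59% of all measured genes, and 1 was lower, beside 6.25%. Besides Gfap these included Hey2, a Notch-linked repressor (46.4 FPKM in Zeb2 cKO nerve against 0.829 FPKM in control nerve), Egr1, an immediate early factor (50.7 FPKM in Zeb2 cKO nerve against 5.62 FPKM in control nerve), and Tfap2a, a neural crest factor (2.94 FPKM in Zeb2 cKO nerve against 0.188 FPKM in control nerve, 15.7-fold). Ngfr, the neurotrophin receptor and the one lower member, was at 15.8 FPKM in Zeb2 cKO nerve against 42.8 FPKM in control nerve. The list shares Gfap, Notch1 and Hes1 with the progenitor list, so the counts of these lists are not independent.

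**Figure D5:**
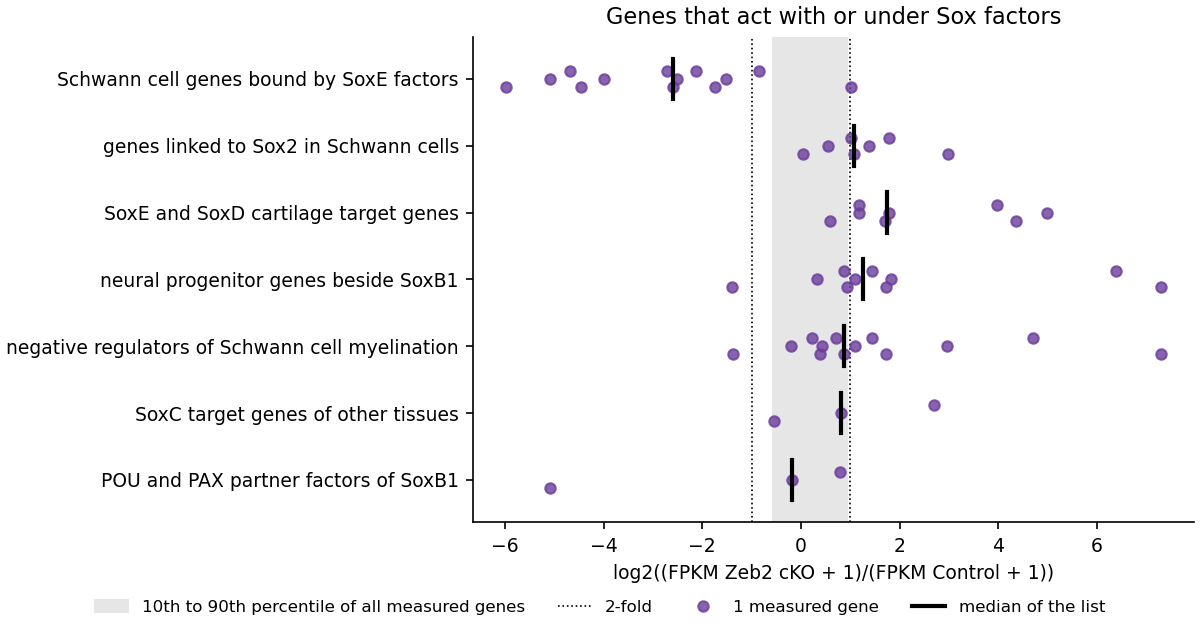
Log2 ratio of FPKM plus 1, Zeb2 cKO over control, for the measured genes of 7 lists of Sox partners and targets, 1 point a gene, with the median of each list as a bar. The grey band is the 10th to 90th percentile of all measured genes and dotted lines mark 2-fold. Schwann cell targets of SoxE factors lie to the left (median -2.60), and Sox2-linked and cartilage genes lie to the right (medians 1.07 and 1.75).

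Partners and targets of the other groups were sparsely expressed. Of all measured genes, 8.59% were 2-fold or more higher and 6.25% lower. Beside these shares, counts of 0 or 1 in lists as short as those of this paragraph say little. Of 7 POU and PAX partners of SoxB1, 3 were measured, and Pou3f1 alone was 2-fold apart. Pou3f2, a close relative of Pou3f1 that also acts in Schwann cells, was at 8.09 FPKM in Zeb2 cKO nerve and 4.25 FPKM in control nerve, with a log2 ratio of 0.79. Of 6 genes known as SoxC targets in other tissues, 3 were measured and 1 was higher. This was Map2, a neuronal microtubule protein, at 18.1 FPKM in Zeb2 cKO nerve and 1.95 FPKM in control nerve (9.28-fold). Tubb3, neuronal tubulin, had a log2 ratio of -0.56, and 0 of 6 measured neuronal markers were 2-fold apart, with a sum of 34.0 FPKM in Zeb2 cKO nerve and 41.4 FPKM in control nerve.

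Markers of the other cells of the nerve give the setting of these values. Over all measured genes 8.59% were 2-fold or more higher and 6.25% lower. Perineurial markers were 2-fold or more higher in 5 of 7, with a sum of 304 FPKM in Zeb2 cKO nerve and 105 FPKM in control nerve. Adipocyte markers were higher in 4 of 4, with a sum of 522 FPKM in Zeb2 cKO nerve against 215 FPKM in control nerve. Macrophage markers were within 2-fold in 7 of 7, with a sum of 116 FPKM in Zeb2 cKO nerve against 124 FPKM in control nerve. Melanocyte markers, from a second Sox10 lineage, were lower in 2 of 3 measured, with a sum of 6.10 FPKM in Zeb2 cKO nerve against 20.4 FPKM in control nerve. Below the filter, Tyrp1 was at 0.134 FPKM in Zeb2 cKO nerve against 1.40 FPKM in control nerve. Tyr and Mlana went the other way, at 1.07 and 0.629 FPKM in Zeb2 cKO nerve against 0.714 and 0 FPKM in control nerve. The part of all these cells in the levels of the 8 Sox genes was not tested.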

How the data were processed

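RNA from pooled sciatic nerves of Zeb2 cKO and control mice was extracted with Trizol and made into TruSeq libraries, per the labels. The submitters' processing notes name CASAVA, TopHat, Cufflinks, Cuffdiff and mm9, without versions. Per the file headers, the deposited FPKM is the Cufflinks estimate for each RefSeq transcript. The deposited coverage signal gives the average depth along a transcript and was not scaled between libraries. Because a table appears under both samples in the labels, it was assigned to the group and to neither sample. Whether it holds 1 sample or both pooled is not stated.

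Rows of the tables, which are ordered differently, were joined by accession, symbol and locus. Of 28107 rows, 295 without status OK in both libraries were left out, and FPKM was summed by symbol (21965 genes, 12903 at a mean of at least 1 FPKM). Ratios used a pseudocount of 1 FPKM, which understates the change of low genes. Reads were estimated as coverage times length over 52.6 bases, the median of 479 products between 30 and 75 in genes with 1 row over 2000 bases long, taken as 1 read. Intervals are exact Poisson for levels and Clopper-Pearson for ratios (Python 3.11.15, pandas 2.3.3, scipy 1.17.1), treat estimated reads as counts, and cover counting error only. The counting code was tested on simulated data.

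The members and gene lists were chosen with earlier results of these data known. Named genes were the 8 members, Zeb2, all other Sox genes, genes overlapping a member, and up to 4 genes 2-fold or more apart with the largest ratio in each list. Genes named as exceptions, members added for contrast or as markers, and genes near a member were chosen after their values were seen. No gene was named for a pattern like that of a member, because 2 libraries give 1 ratio. Lists were matched by symbol, with 5 entries matched by RefSeq accession. Positions are mm9 as in the tables, counted from 1, except where GRCm38 is named. The alternatives were other pseudocounts, filters, fold thresholds, scaling to the median gene, coverage in place of FPKM, the top row of a gene, and every status. Removing small RNA genes was added after the data were examined.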

Additional observations from a re-analysis of the deposited data

How the results depend on the processing

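No paired analysis was possible because each group has 1 table of values, and no replicate could be left out. The log2 ratios of the 8 genes stayed positive under every alternative that gave them a value, except Sox6 with its top transcript (-0.32). A mean of at least 5 FPKM gave no value for Sox5, Sox6 and Sox11. The Sox6 value of -0.32 follows from the top transcript being the one lower in the Zeb2 cKO library. Its mean barely exceeded that of the middle transcript, which was higher there. With a pseudocount of 0.1 the log2 ratios were 3.67 for Sox3, 0.48 for Sox11, 0.69 for Sox5 and 1.02 for Sox6, with 0.5 Sox3 was 3.21, and without a pseudocount they were 3.81, 0.53, 0.75 and 1.05. Rescaled to the median gene, Sox2 was 1.5, Sox4 0.36, Sox6 0.64, Sox8 0.84 and Sox9 0.50. Members 2-fold or more higher numbered 3, and 4 with a pseudocount of 0.1 or none, 2 after rescaling, 5 at 1.5-fold and 2 at 3-fold, with 0 lower throughout. Over all measured genes, 1.5-fold gave 2537 higher and 1266 lower, 3-fold gave 401 and 457, and a mean of at least 5 FPKM gave 739 higher. Without small RNA genes there were 1049 higher and 736 lower. Coverage in place of FPKM and rows of every status changed no count of members, and could not have done so. Coverage was divided by the median coverage per FPKM of its own library, which returns the FPKM. Every row of the 8 genes had status OK. Depth limits Sox5, Sox11 and the control value of Sox3, which rests on an estimated 64 reads.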

Other observations

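Genes within 500 kb of the 8 Sox genes were listed after the values were seen. They number 67, of which 46 were measured, 2 were 2-fold or more higher and 1 was lower. Over all measured genes 8.59% were higher and 6.25% lower, so called genes were no more frequent among the pooled neighbours than elsewhere. Of the 46 measured neighbours, 35 lay near Sox8, so the pooled count describes mostly that locus. Sox6 had 5 measured neighbours (1 lower), Sox9 had 3 (1 higher) and Sox8 had 1 higher. Sox2, Sox3 and Sox4 had 1 each, with 0 called. The values of neighbours named here are a description. BC006965, a noncoding gene 71 kb from Sox9 on the side of lower coordinates (chr11:112525241-112572670, mm9), was at 14.8 FPKM in Zeb2 cKO nerve and 0.0771 FPKM in control nerve. The ratio of 193 (82.1 to 595) has only about 5 control reads under it. In all, 55 of all measured genes had a ratio at least as high. On the other side of Sox9, 256 kb away, the noncoding 2610035D17Rik was at 5.96 FPKM in Zeb2 cKO nerve and 2.60 FPKM in control nerve, with a log2 ratio of 0.95. Sox9 lies between them at a log2 ratio of 0.69, and Slc39a11, 457 kb away, had 0.19. Near Sox6, Plekha7 (85 kb) was at 4.12 FPKM in Zeb2 cKO nerve and 21.0 FPKM in control nerve, with a log2 ratio of -2.11. Near Sox8, Msln, which encodes mesothelin (178 kb), was at 8.06 FPKM in Zeb2 cKO nerve against 2.85 FPKM in control nerve. No gene lay within 500 kb of Sox5 or Sox11 in the tables.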
